A study of Mus musculus with 6 samples.

Results

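The regions described here are stretches of open chromatin that were called in every library but stood lower in the order of peak strength after doxorubicin (DOX) than after phosphate-buffered saline (PBS). Intervals of all 6 peak lists on chromosomes 1 to 19 and X were merged into 113038 regions, and 55226 of them (48.9%) held a peak in every library. In each library the strongest fold enrichment of a region was turned into a percentile rank among these 55226 shared regions, so that 100 is the strongest. A region was taken when its highest DOX rank lay below its lowest PBS rank and its mean PBS rank exceeded its mean DOX rank by at least 5 percentile points. This gave 3284 regions, 5.95% of the shared regions. The same rule with the groups exchanged gave 3442 regions, 6.23%, that ranked higher after DOX. The regions were thus chosen by the fold enrichments of these same 6 libraries, so the ranks below are a description and carry no test. Each difference in points is the mean PBS rank minus the mean DOX rank, so a positive value means lower after DOX. For a value given without 1 library, the remaining lists were merged and ranked again. The shared regions and the rank scale then changed too, most without PBS replicate 3, which gave 68448 shared regions. Such a value is therefore not the effect of that library alone.

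The cells were mesenchymal stem and progenitor cells (MSPCs) of bone marrow, sorted by tdTomato from female Lepr-Cre;LSL-tdTomato+/- mice. Cre is driven by the leptin receptor gene in this strain, so the red label marks cells that express it or descend from cells that did, and the sort takes them all together. The mice were 8 to 10 weeks old when treated with 4 intravenous injections, 1 week apart, of DOX at 5 mg/kg (3 libraries) or of PBS (3 libraries), and marrow was taken 8 weeks after treatment. Both groups carried the same Cre and reporter alleles. Titles describe the libraries as biological replicates, but do not say how many mice went into each.

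In ATAC-seq the transposase Tn5 inserts adapters into accessible DNA, so the height of a peak reflects how often a stretch of chromatin was open in the nuclei sampled. Promoters of widely used genes are open in most cells and give high peaks, whereas distal elements such as enhancers are often open only in some cell states and give lower ones. Leptin receptor lineage cells surround marrow sinusoids, supply blood stem cells with factors such as Cxcl12 and Kitl, and can form bone and fat. In bulk libraries, fewer cells with an open region and less accessibility per cell cannot be told apart.

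The promoters below lie wholly inside regions that ranked lower. They are 300 bases long, from 250 before to 50 after the gene's start, and come from RefSeq on GRCm38.p6, which has the coordinates of mm10. Capitals mark matches to a searched motif on either strand, as named after the sequences. Aqp1 encodes a water channel, and its region had the largest difference at a gene end among regions that ranked lower. Fam180a and Itgb8 come next in that order, and Itgb8 encodes an integrin subunit that binds latent TGF-beta. Snrnp70, which encodes a protein of the U1 splicing particle, represents the strong promoters. Runx2, the master transcription factor of the osteoblast lineage, and Alpl, the tissue-nonspecific alkaline phosphatase needed for mineral deposition, are osteoblast genes and were picked after their values were seen.
Aqp1, chr6:55336049-55336348, plus strand: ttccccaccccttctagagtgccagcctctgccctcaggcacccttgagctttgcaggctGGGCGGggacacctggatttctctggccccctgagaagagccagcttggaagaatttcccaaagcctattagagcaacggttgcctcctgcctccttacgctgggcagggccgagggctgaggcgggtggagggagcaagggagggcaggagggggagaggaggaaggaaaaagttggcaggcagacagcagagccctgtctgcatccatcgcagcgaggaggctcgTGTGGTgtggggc
Fam180a, chr6:35326092-35326391, minus strand: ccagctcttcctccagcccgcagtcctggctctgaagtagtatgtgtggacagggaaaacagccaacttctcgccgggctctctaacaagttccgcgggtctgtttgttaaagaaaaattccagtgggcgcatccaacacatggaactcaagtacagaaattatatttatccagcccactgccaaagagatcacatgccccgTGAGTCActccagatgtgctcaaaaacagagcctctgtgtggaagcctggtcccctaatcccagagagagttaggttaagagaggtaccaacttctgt
Itgb8, chr12:119238227-119238526, minus strand: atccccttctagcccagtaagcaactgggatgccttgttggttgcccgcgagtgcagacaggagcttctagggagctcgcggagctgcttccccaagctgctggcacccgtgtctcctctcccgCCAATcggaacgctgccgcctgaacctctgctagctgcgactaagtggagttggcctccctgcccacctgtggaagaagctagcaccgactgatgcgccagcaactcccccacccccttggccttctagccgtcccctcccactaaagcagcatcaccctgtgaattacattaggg
Snrnp70, chr7:45395693-45395992, minus strand: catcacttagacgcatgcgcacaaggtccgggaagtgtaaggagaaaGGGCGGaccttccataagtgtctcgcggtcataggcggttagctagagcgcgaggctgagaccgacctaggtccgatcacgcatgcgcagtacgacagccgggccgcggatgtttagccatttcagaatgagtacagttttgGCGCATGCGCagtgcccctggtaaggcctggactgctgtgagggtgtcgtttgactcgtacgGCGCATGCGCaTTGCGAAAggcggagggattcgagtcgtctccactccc
Runx2, chr17:44814578-44814877, minus strand: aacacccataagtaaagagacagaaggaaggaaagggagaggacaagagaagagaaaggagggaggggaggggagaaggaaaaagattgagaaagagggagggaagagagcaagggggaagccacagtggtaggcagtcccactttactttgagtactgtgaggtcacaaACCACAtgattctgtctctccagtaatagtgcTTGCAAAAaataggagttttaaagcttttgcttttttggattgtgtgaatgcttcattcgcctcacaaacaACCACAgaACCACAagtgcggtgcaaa
Alpl, chr4:137796335-137796634, minus strand: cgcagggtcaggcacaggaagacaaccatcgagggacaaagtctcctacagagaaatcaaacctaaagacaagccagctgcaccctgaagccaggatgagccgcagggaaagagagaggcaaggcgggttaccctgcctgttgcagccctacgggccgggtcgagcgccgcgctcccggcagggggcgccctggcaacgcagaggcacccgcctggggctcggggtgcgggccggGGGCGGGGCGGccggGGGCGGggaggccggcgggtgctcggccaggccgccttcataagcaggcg

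The capitals in the Aqp1 promoter are 1 GC box (GGGCGG, the core bound by Sp and Klf factors) and 1 RUNX core (TGTGGT, or ACCACA on the other strand). Fam180a has 1 AP-1 element (TGANTCA) and Itgb8 has 1 CCAAT box. Snrnp70 has 1 GC box, 2 NRF1 elements and 1 C/EBP element, and Runx2 has 3 RUNX cores and 1 C/EBP element. Alpl has 3 GC boxes, of which a pair overlap. The promoters differ widely in composition: Snrnp70 holds 28 CpG dinucleotides and Alpl holds 26, against 2 in Runx2. A match of letters is a description and does not show that a factor is bound.

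Regions that ranked lower also covered microRNAs in 2 cases, a count that was not set beside that over all shared regions. The first lies at chr2:32317925-32318590, inside Dnm1, and contains Mir199b, whose 3p arm is shown because it is the best known of the 3 mature arms found in these regions. Its sequence, at chr2:32318524-32318545 on the plus strand, has the seed (bases 2 to 8) in capitals.
miR-199b-3p: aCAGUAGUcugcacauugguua
The region ranked 36.2, 41.1 and 35.7 in DOX replicates 1, 2 and 3, against 55.5, 45.1 and 51.2 in PBS replicates 1, 2 and 3, a difference of 12.9 points. The groups did not overlap by the rule itself. The second, at chr5:114851791-114852062, covers Mir6240 and had a difference of 16.4 points, or 6.96 without PBS replicate 3. Another region inside Dnm1, at chr2:32342477-32343421, was among the 20 with the largest differences. It ranked 23.9, 21 and 12 in DOX and 42.6, 52.7 and 41.8 in PBS, a difference of 26.7 points.

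Across the 3284 regions the difference had a median of 10.1 points, with quartiles of 7.28 and 13.7 and a largest value of 37.8. The mean ranks of the groups were at least 10 points apart in 1665 regions (50.7%), at least 20 in 172 and at least 30 in 8. The median distance between the highest DOX and the lowest PBS rank was 2.7 points, so for most regions the groups were apart but close. Over all shared regions the median difference was 0.0579 points and 50.8% were above 0. The median SD of a region's ranks was 3.14 points in DOX and 3.86 points in PBS, against 3.04 and 4.14 points over all shared regions.

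The regions held middling ranks. Their median rank was 30.9, 29.6 and 29.1 in DOX replicates 1, 2 and 3, against 42.6, 42.2 and 44 in PBS replicates 1, 2 and 3. At the lower bound of the rule, the 3 regions just inside it had differences of 5.01 points and lay near Unc5c, near Dazap2 and at chr3:147502024-147502263 with no gene within 100 kb. The 3 just outside it, near Pdia4, Hbs1l and Lcp2, had differences of 5 points after rounding. Without PBS replicate 3 the difference was 2.33 points near Dazap2, 2.95 near Hbs1l and 2.54 near Lcp2. Another 1855 regions had DOX ranks wholly below their PBS ranks but differed by less than 5 points, so 5139 (9.31%) were lower without the minimum, beside 5081 (9.2%) higher.

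**Figure D1:**
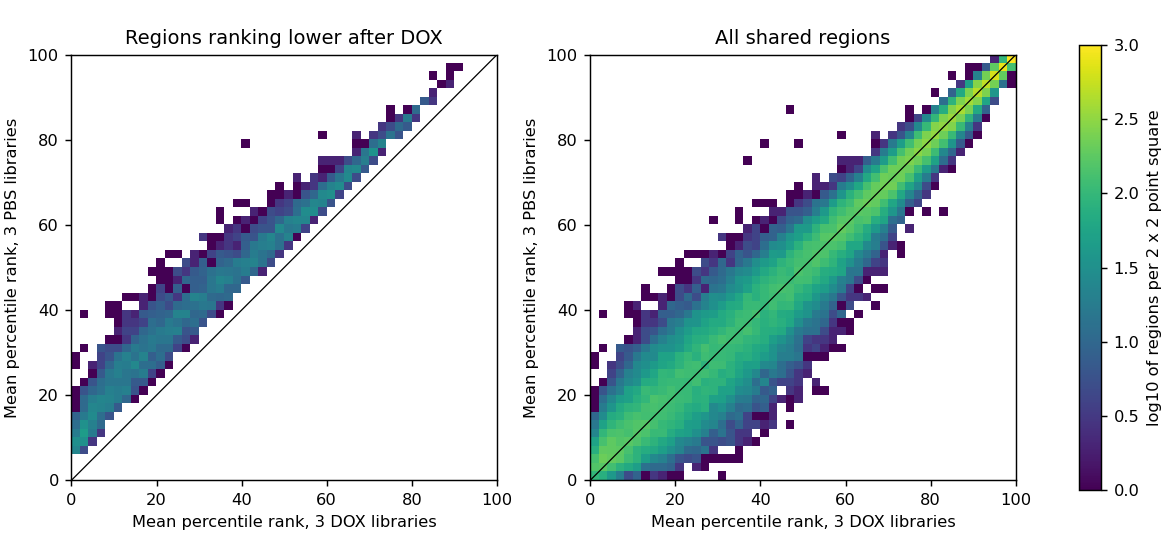
Mean percentile rank in the 3 DOX libraries (x axis) against that in the 3 PBS libraries (y axis) for the regions ranking lower after DOX (left) and for all shared regions (right), in squares of 2 by 2 points coloured by the log10 of the number of regions; the line marks equal ranks. The chosen regions form a band just above the line that thins out towards the highest ranks, where few regions differ by 5 points.

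Depth moved with the groups and sets how finely each rank is known. The lists gave the number of fragments over each summit, because the step between fold values gives the background and fold then gives the number. The mean number of fragments per position was 1.72, 1.673 and 2.223 in DOX, against 1.27, 1.096 and 0.5577 in PBS, so that every DOX library was deeper than every PBS library by this measure. A median chosen region had 45, 46 and 61 fragments in DOX and 45, 41 and 19 fragments in PBS. At that height 1 fragment was worth 0.958, 0.874 and 0.676 points in DOX and 0.905, 1.04 and 2.04 points in PBS. The exact Poisson 95% interval of the 19 fragments of PBS replicate 3 was 11.4 to 29.7, and that of the 61 fragments of DOX replicate 3 was 46.7 to 78.4; these intervals cover counting error only. PBS replicate 3, the shallowest library, held the highest PBS rank in 1640 of the 3284 regions (49.9%). Its ranks correlated least with those of other libraries (Pearson's r across the 55226 regions of 0.933 to 0.945), where the remaining pairs gave 0.95 to 0.974, and regions are not replicates. PBS replicate 1 gave 0.965, 0.962 and 0.95 with DOX replicates 1, 2 and 3, and 0.96 with PBS replicate 2. Pairs of DOX libraries gave 0.968 to 0.974. With the other lists merged and ranked again without PBS replicate 3, 6173 of 68448 shared regions (9.02%) ranked lower. Of the 3284 regions, 82.4% were chosen again. Those regions had been picked for ranks that do not overlap in the remaining libraries too, so that share is no independent check. The part of depth in these ranks was not tested. A scale other than the rank changed the balance: with each library's log2 fold centred on its median and a minimum of 0.25, 4748 regions were lower and 2859 higher after DOX, against 3284 and 3442 by rank.

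The largest differences lay inside or near genes of many functions. A region inside Syne1, which encodes a giant protein linking the nucleus to the cytoskeleton (chr10:5025291-5025582), ranked 52.3, 36.2 and 36.8 in DOX, against 69.8, 74.8 and 94.0 in PBS. Its difference of 37.8 points was 24.8 without PBS replicate 3. A region inside Ncoa1, a coactivator of steroid receptors (chr12:4417716-4417977), ranked 2.36, 2.99 and 2.96 in DOX, against 22.3, 29.0 and 67.3 in PBS, a difference of 36.7 points. The DOX libraries were close together there, while the PBS libraries were spread out. In Spata13 (chr14:60704919-60705451) ranks were 17.3, 19.9 and 17.4 in DOX and 60, 47.6 and 41.8 in PBS, a difference of 31.6 points. In Ppp1r9a (chr6:4923831-4924198) they were 4.69, 11.5 and 9.79 in DOX and 25.2, 27.5 and 65.7 in PBS, a difference of 30.8 points.

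Other regions among these 20 were of middle rank in PBS. Near Astn2, 78565 bp away (chr4:66482505-66483392), ranks were 22.8, 24 and 13.6 in DOX and 47.6, 52.7 and 52.8 in PBS. Inside Lig1, which encodes the DNA ligase of replication (chr7:13302773-13303269), they were 38.5, 18.9 and 15 in DOX and 54.4, 55.7 and 51.2 in PBS. Inside Wwtr1, which encodes the Hippo pathway coactivator TAZ (chr3:57510234-57510766), they were 20.6, 22.0 and 7.68 in DOX and 45.1, 37.9 and 47.9 in PBS. The differences of these 3 were 30.9, 29.6 and 26.9 points, and the SD of their PBS ranks was 2.97, 2.3 and 5.13 points. Near Adra1a, which encodes an adrenergic receptor (77398 bp away, chr14:66557712-66558029), ranks were 21.7, 3.68 and 7.01 in DOX and 40.7, 42.2 and 36.5 in PBS, a difference of 29.0 points. The region nearest to Sfi1, a gene of the centrosome (chr11:3100424-3104729), had a difference of 32.5 points with wide spread in both groups, at 18.4, 4.42 and 1.7 in DOX and 49.7, 24.5 and 47.9 in PBS. The remaining regions of the 20 lay near or inside Gm4832, Ptprd, Sepsecs, Ston2 and Becn2, or more than 100 kb from any protein-coding gene (5 regions), with differences of 26.1 to 30.4 points. For the region at chr2:57629493-57629725, one of those 5, the difference of 28.6 points was 14.5 without PBS replicate 3.

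**Figure D2:**
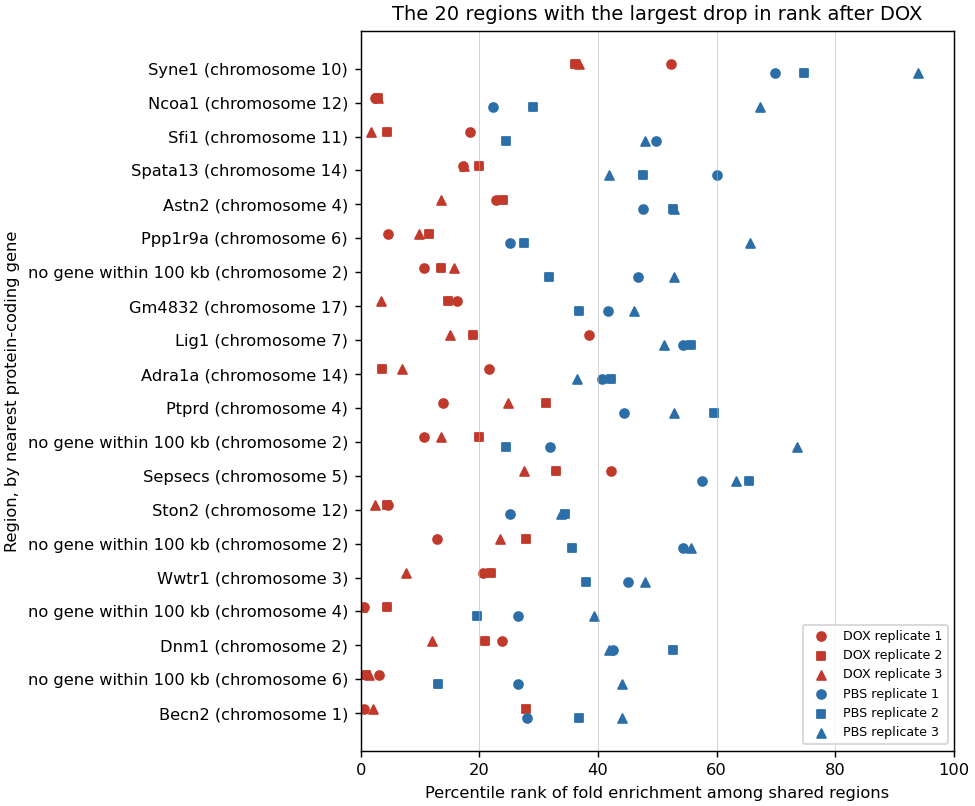
Percentile rank of fold enrichment in each of the 3 DOX (red) and 3 PBS (blue) libraries for the 20 regions with the largest difference, named by nearest protein-coding gene and ordered from the top. All DOX points lie left of all PBS points because the rule required it; PBS replicate 3 stands furthest right in several regions, as in Syne1 at 94.0.

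Few of the strongest regions ranked lower or higher. By mean rank over the 6 libraries, regions that ranked lower made up 7.71%, 8.28% and 8.03% of shared regions in the bins 0 to 20, 20 to 40 and 40 to 60. They made up 4.89% in 60 to 80 and 0.64% (70 regions) in 80 to 100. For regions that ranked higher the shares were 6.06%, 9.28%, 8.46%, 6.05% and 1.04%. At the top few regions differ by the required 5 points in either direction. Among regions that ranked lower, the 10 with the highest PBS ranks lay at or near Opn3, Gtpbp4, Zfp945, Cd209a, Rnps1, Snrnp70, Psma2, Mrpl54, Zbtb2 and Bptf. Of these, Snrnp70, Rnps1, Psma2 and Mrpl54 encode parts of splicing complexes, the proteasome and the mitochondrial ribosome. The Snrnp70 region shown above (chr7:45395039-45396521) ranked 87.3, 90.4 and 86.6 in DOX and 92.8, 93.0 and 94.9 in PBS, a difference of 5.45 points. Rnps1 ranked 88.6, 88.8 and 87.6 in DOX and 93.5, 92.6 and 94.6 in PBS, a difference of 5.27 points. Psma2 ranked 85.5, 88.7 and 86.3 in DOX and 91.2, 91.3 and 93.8 in PBS, a difference of 5.27 points as well. In these 3 regions every library gave a high rank, and the gap between the groups was narrow. Without PBS replicate 3 the differences were 4.15 points at Gtpbp4, 3.32 at Zfp945, 5.81 at Cd209a, 4.09 at Mrpl54 and 3.24 at Bptf, against 6.7, 5.82, 9.31, 6.18 and 5.51 with it. At Opn3 the difference of 5.45 points was 3.42 without DOX replicate 3.

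With the minimum of 5 points, a smaller share of the regions than of all shared regions lay at gene ends. The strongest summit lay no more than 1 kb from the start or the far end of a protein-coding gene in 267 of them (8.13%), against 389 (11.3%) of the regions that ranked higher and 11653 (21.1%) of all shared regions. Another 1439 (43.8%) lay inside a gene and 1578 (48.1%) outside, and 417 (12.7%) had no gene within 100 kb, against 8.74% of all shared regions. The share at gene ends depends on strength, so it was also read within bins of mean rank. In the bins 0 to 20, 20 to 40, 40 to 60, 60 to 80 and 80 to 100 it was 5.11%, 4.54%, 7.22%, 15.6% and 50.0%, against 6.98%, 7.77%, 10.6%, 23.2% and 57.8% of all shared regions. It was therefore lower in every bin, by a smaller margin than without bins. For regions that ranked higher the shares were 8.05%, 8.64%, 12.1%, 16% and 22.8%. The minimum of 5 points sets the direction of this comparison: without it 24.4% of the lower regions were at gene ends, above the 21.1% of all shared regions.

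They were also narrower and further from transcription starts. The median width was 537 bp, against 663.5 bp in regions that ranked higher and 697 bp in all shared regions, and each library had a single peak in 90.2%, against 83.4% of all shared regions. Within the 5 bins of mean rank the median widths were 412.5, 488, 603, 765 and 1250 bp, against 443, 509, 649, 893 and 1314 bp in all shared regions. The difference in width was thus present at every strength and smaller than over all regions together. Start sites were known for all chromosomes but 18, which left 3149 regions, and the median distance to the nearest was 43699 bp, against 28832 bp for 53386 shared regions. A start lay within 1 kb of 5.18% of them, against 18.1%, and none lay within 100 kb of 31.2%, against 24.5%. Regions that ranked higher lay between, with a median of 38143 bp, 9.1% within 1 kb and 26.5% beyond 100 kb. These distances were not read by strength or without the 5 point minimum.

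**Figure D3:**
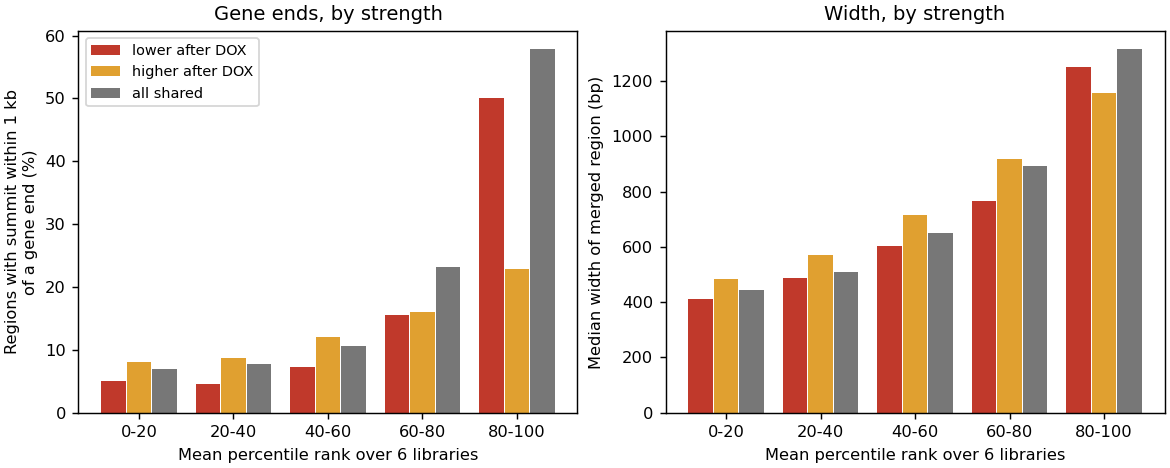
Share of regions with a summit within 1 kb of a gene end (left, percent) and median width of the merged region (right, bp) by mean percentile rank over the 6 libraries, for regions ranking lower after DOX (red), higher after DOX (orange) and all shared regions (grey). Red bars are below grey bars in every bin of both panels; width grows with strength throughout, and the red gene end share grows from the bin 20 to 40 upward.

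Few of the regions covered promoters. They touched a promoter of the RefSeq table in 154 cases (4.69%), against 7.99% of regions that ranked higher and 17.2% of shared regions. These shares were not read by strength or without the 5 point minimum, which set the direction of the comparison for gene ends. Wholly inside the regions that ranked lower lay 142 promoters of 125 genes. The strongest differences at gene ends were modest in strength. The Aqp1 region shown above (chr6:55335966-55336753) had 50, 32 and 57 fragments at its summit in DOX and 53, 43 and 24 fragments in PBS, which ranked it 35.4, 15.7 and 26.3 in DOX and 49.0, 44.2 and 52.8 in PBS, a difference of 22.9 points. The Fam180a region (chr6:35326060-35326568) ranked 9.59, 5.99 and 5.08 in DOX and 25.2, 35.7 and 19.5 in PBS, a difference of 19.9 points. The Itgb8 region (chr12:119237983-119239035) ranked 40.8, 41.1 and 22.7 in DOX and 51.8, 46.8 and 61.4 in PBS, a difference of 18.5 points. All of these promoters were of low or middle rank in both groups, unlike Snrnp70. The other gene ends among the 10 with the largest differences were Dusp16, which encodes a MAP kinase phosphatase, Smlr1, Rin2, Cdcp3, Cep350, Cpe and Plat, which encodes tissue plasminogen activator, at 16.8 to 18.2 points.

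The composition of the 142 promoters was read beside that of the 10576 promoters inside shared regions. Their median GC content was 60.8%, against 62.7%, and the median number of CpG dinucleotides was 20, against 23; promoters in regions that ranked higher had 65.2% and 21. In all 21045 promoters of the table the medians were 56.7% and 13. The NRF1 element was found in 16.2% of the 142 promoters, against 11.5% of those in shared regions and 6.44% of the table, and 23 promoters held it. All 23 were among the 108 promoters in regions with a mean rank over 60, where the share was 21.3%, against 12.4% of all shared promoters of that strength. The YY1 element was found in 9.15% (13 promoters), against 4.78% and 3.07%. In promoters of regions that ranked higher the shares were 3.12% for NRF1 and 1.34% for YY1. NRF1 and YY1 are factors of housekeeping promoters, among them those of mitochondrial and ribosomal genes.

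The remaining elements were at shares on either side of those in shared regions. The CCAAT box was found in 26.8%, against 38.2% of promoters in shared regions, and the ETS core CCGGAAG in 11.3%, against 19.7%. By strength the CCAAT box went both ways, at 24.1% against 39.3% of shared promoters with a mean rank over 60, but 35.3% (12 of 34) against 28.8% of those up to 60. The GC box was found in 67.6%, against 71.6%, and the RUNX core in 14.8%, against 10.9%. The AP-1 element was found in 2.82%, against 3.91%, and the TATA box (TATAAA) in 2.82%, against 5.43%. These shares rest on 142 promoters, so 2.82% is 4 promoters. The hypoxia core ACGTG was found in 17.6%, against 26.5%, the E-box CACGTG in 7.04%, against 10.4%, the TEAD core GGAATG in 7.75%, against 10.9%, and the forkhead element TGTTTAC in 2.11%, against 2.39%. Longer elements of CREB, C/EBP, EBF, NF-kB, MEF2, SRF and the glucocorticoid receptor were each in 0% to 6.34% of the 142 promoters. All were searched on both strands; the E-box holds the hypoxia core.

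A larger share of these regions than of all shared regions had a neighbour of the same kind. The nearest shared region on the chromosome, by midpoint and on either side, also ranked lower for 332 (10.1%), against 5.86% over all shared regions. It ranked higher for 136 (4.14%), against 6.65%. Regions that were each other's nearest were both counted. For regions that ranked higher the shares were 3.54% lower and 11.2% higher. A gene within 100 kb was found for 2867 (87.3%), and these went to 2240 of the 14425 genes with a shared region. Of these genes 1798 had a single such region, 442 had 2 or more and 35 had 4 or more, while 565 also had a region that ranked higher. The nearest gene is a matter of distance and need not be the gene an element acts on.

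Fhod3, which encodes a formin that assembles actin filaments, had the most, at 8 of 15 shared regions and none that ranked higher. The difference was above 0 in 14 of the 15, their median was 7.04 points, and the median of the 7 not chosen was 6.67 points. In the largest of these (chr18:24742305-24742811) ranks were 31.8, 32.2 and 16.6 in DOX and 45.1, 49.2 and 60.3 in PBS, a difference of 24.7 points. Fhod3 was named for its count, so these values only describe it. Col25a1, which encodes a transmembrane collagen, had 5 of 18 with a median of 6.69 points over all 18, and the difference was above 0 in 16. Tenm2, a teneurin adhesion gene, had 6 of 15 lower and 2 higher, Bcas3 had 6 of 21 and none higher, and Auts2 had 5 of 25 and none higher. In other genes the medians were near or below 0. Rad51b, a gene of homologous recombination, had 7 of 61 lower and 4 higher with a median of -0.26 points, and Rgl1 had 5 of 30 lower with a median of -1.41 points. Pard3b had 5 of 30 and Nfib, a transcription factor gene, had 5 of 34, with medians of 1.35 and 1.08 points. Stard13, Foxn3, Kcnma1, Spata13 and Zfp608 also had 5 each.

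The regions were then read by lists of genes of stromal biology, DNA damage and other marrow cells, each region going to its nearest gene. Over all 50398 shared regions with a gene within 100 kb, 5.69% ranked lower and 6.17% higher. Of the lists with more than 100 regions, osteoblast and mineralised matrix genes had the highest share that ranked lower, 23 of 207 (11.1%), with 11 (5.31%) that ranked higher. Within 10 kb of the gene the count was 18 of 139 (12.9%), against 5.26% of all regions that close to a gene. The difference was above 0 in 121 of the 207 regions (58.5%), with a median of 1.16 points, against 50.6% and 0.0371 points over all regions with a gene. The mean rank of the list was 46, 44.5 and 44.5 in DOX, against 46.3, 46.5 and 45.3 in PBS, so the average over the list was within a few points in all libraries. Read beside all shared regions, the share varied with the libraries used: it was 17.1% against 9.12% without DOX replicate 1, 12.7% against 10.7% without PBS replicate 1, and 9.91% against 8.35% without DOX replicate 2. With a minimum of 10 points it was 3.86% (8 regions), against 3.01% of all shared regions, so the distance from the background is small under some settings.

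**Figure D4:**
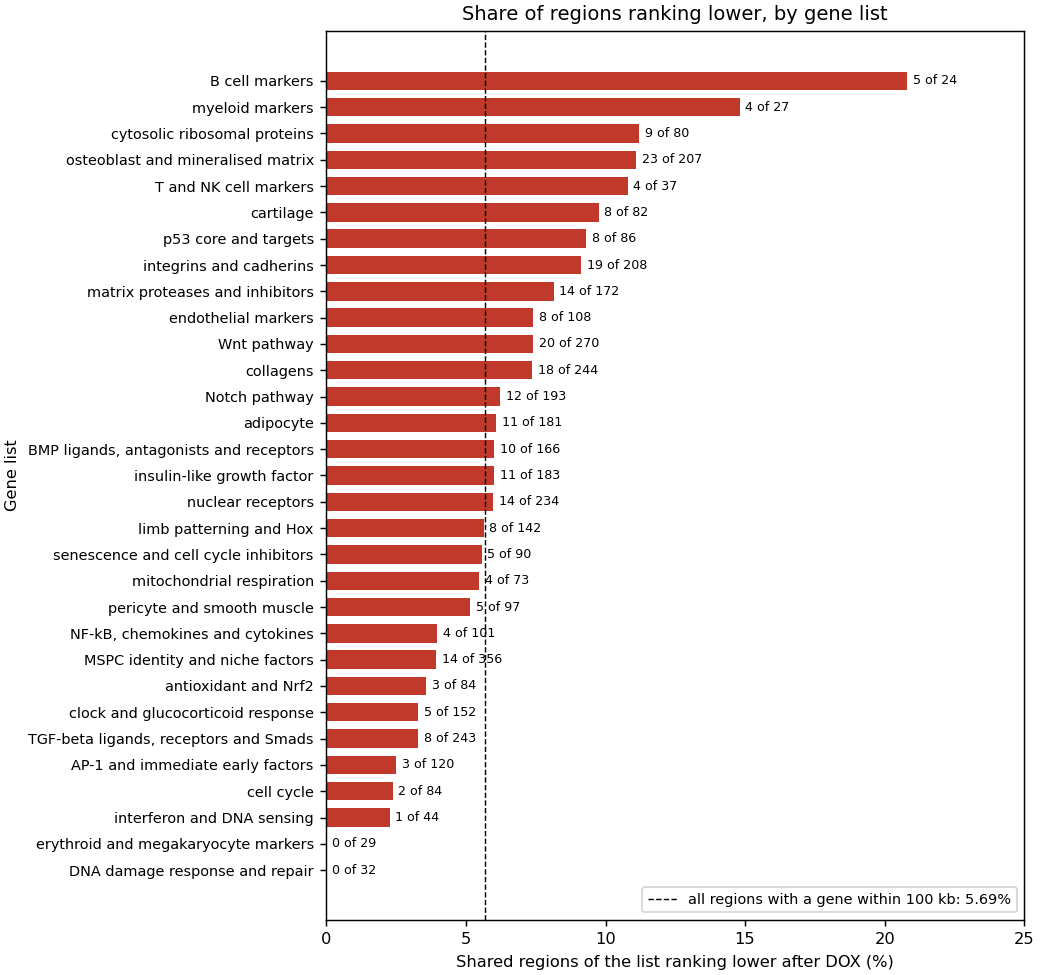
Share of shared regions that ranked lower after DOX (percent) for each of the 31 gene lists, with the count beside each bar; the dashed line is the share over all shared regions with a gene within 100 kb, 5.69%. The B cell and myeloid lists stand at the top with few regions, the osteoblast list, with 23 of 207, stands above the line, and the erythroid list is at 0 of 29.

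Among osteoblast transcription factors, Runx2 had 4 of 34 regions that ranked lower. Its region at the gene end (chr17:44814061-44815487), which covers the promoter shown above with 3 RUNX cores, ranked 75.3, 78.3 and 78.5 in DOX and 82.2, 82.5 and 85.3 in PBS, a difference of 5.98 points. The other 3 lay inside the gene (9.48 and 8.71 points) and 40154 bp outside it (7.72 points); without PBS replicate 3 these 3 were 6.16, 5.25 and 3.33 points. Mef2c, a transcription factor active in osteocytes, had 3 of 9 regions that ranked lower, all inside the gene, at 7.46, 7.12 and 5.64 points. The first was 13.1 points without PBS replicate 3, when all regions were ranked again. Twist1, a basic helix-loop-helix factor that holds back osteoblast maturation, had 2 of 5. The stronger of the Twist1 pair (chr12:33963135-33963698) ranked 33.6, 9.58 and 26.3 in DOX and 44.3, 51.3 and 44.0 in PBS, a difference of 23.4 points. The DOX libraries were spread there and the PBS libraries close together. Single regions stood near Sp7 (osterix), 14748 bp away at 5.52 points, and near Dlx5 at 7.84 points. The difference at Dlx5 was 4.98 points without DOX replicate 2 and 4.92 points without PBS replicate 3.

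Among genes of bone matrix and its mineral, regions at an end of Alpl and of Col1a1 were in the set. The Alpl region (chr4:137795643-137796685), which covers the promoter shown above with 3 GC boxes, ranked 77.4, 71.9 and 77.1 in DOX and 80.5, 80.6 and 81.8 in PBS, a difference of 5.5 points. The Col1a1 region (chr11:94935915-94938118), at an end of the gene for the main collagen of bone, ranked 69.8, 72.4 and 71.5 in DOX and 78.6, 75.3 and 76.8 in PBS, a difference of 5.61 points. These were strong regions with small differences, as at the Runx2 gene end. Weaker and more distal regions had larger differences. One 43699 bp from Postn, the gene of the matrix protein periostin (chr3:54434374-54434958), ranked 42.2, 23.0 and 24.9 in DOX and 50.5, 50.6 and 47.9 in PBS, a difference of 19.6 points. One inside Tnfrsf11b, which encodes osteoprotegerin, the decoy receptor that restrains osteoclasts (chr15:54264417-54264683), ranked 9.59, 10.5 and 8.36 in DOX and 25.2, 31.8 and 15.4 in PBS, a difference of 14.6 points. None of the 12 shared regions near Col1a2 or the 12 near Sparc ranked lower, and 3 near Col1a2 ranked higher.

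On chromosome 5 a run of neighbouring genes, Dspp, Dmp1, Ibsp, Mepe and Spp1, encodes related acidic phosphoproteins of bone and tooth matrix. This window, which reaches 10 kb past the outer genes (chr5:104160703-104451053), was picked after the values of its regions were seen. Of its 30 shared regions 6 (20%) ranked lower, 2 higher and 22 neither, where 5.95% of all shared regions ranked lower and 6.23% higher. The difference was above 0 in 22 of the 30, against 50.8% of all shared regions, with a median of 3.12 points. The 6 that ranked lower are also among the 23 of the osteoblast list, so they are not a separate count. The region inside Ibsp, the gene of bone sialoprotein (chr5:104303196-104303599), ranked 6.49, 9.58 and 9.06 in DOX and 20.8, 27.5 and 44.0 in PBS, a difference of 22.4 points. The region 6825 bp from Mepe (chr5:104345261-104345680) ranked 30.9, 12.6 and 11.3 in DOX and 38.7, 41.2 and 46.0 in PBS, a difference of 23.7 points. In fragments the Ibsp summit had 22, 26 and 34 in DOX and 27, 29 and 19 in PBS. The Mepe summit had 45, 29 and 37 in DOX and 41, 40 and 20 in PBS, which in PBS is near the median chosen region. Another region 32975 bp from Mepe had a difference of 16.3 points, and one 30468 bp from Spp1, which encodes osteopontin, had 10.8 points with the groups 0.0235 points apart. The other 2 that ranked lower were near Mepe at 8.68 points and near Spp1 at 6.66 points, of which the second was 3.22 without PBS replicate 3. The gene ends of Ibsp and Spp1 were not among them, with differences of 3.17 and 0.63 points. The regions that ranked higher, near Dmp1 and Spp1, had differences of -13 and -7.37 points.

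**Figure D5:**
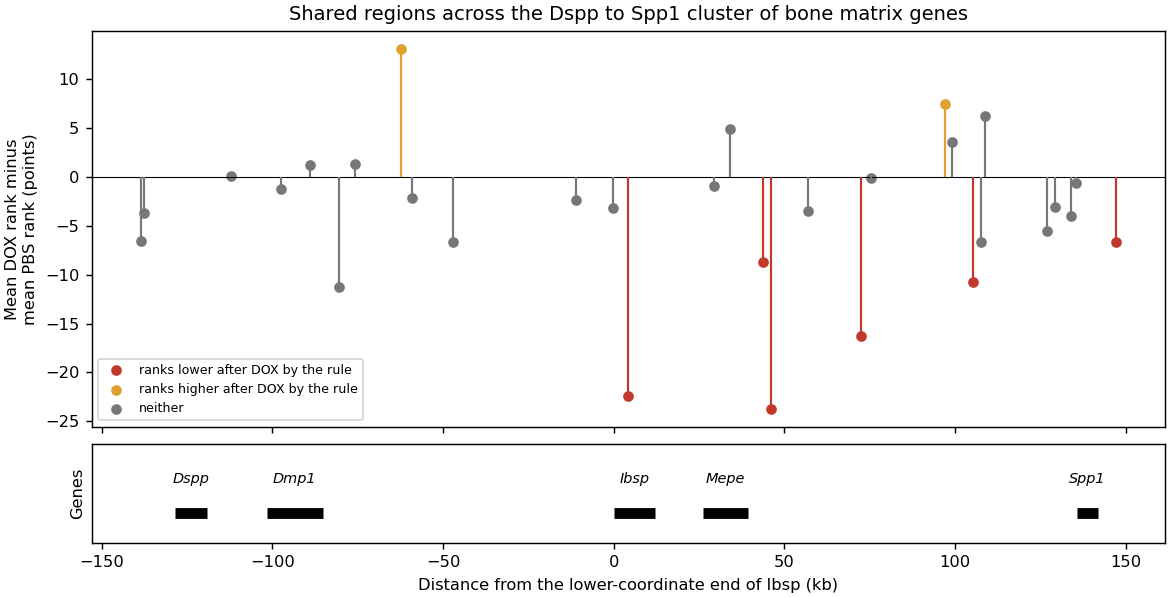
Mean DOX rank minus mean PBS rank (percentile points, y axis) of the 30 shared regions across the Dspp to Spp1 cluster, by distance in kb from the lower-coordinate end of Ibsp; bars below show the 5 genes. Red points rank lower after DOX by the rule, orange points rank higher and grey points do neither; the deepest red points lie inside Ibsp and beyond Mepe, and red and orange points interleave.

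Cartilage genes had 8 of 82 regions that ranked lower (9.76%) and 4 that ranked higher, with a median difference of 0.211 points. The region inside Col11a1, a fibrillar collagen gene of cartilage (chr3:114053453-114054016), ranked 12.8, 26.9 and 7.68 in DOX and 30.6, 36.8 and 33.7 in PBS, a difference of 17.9 points. Runx3 had 3 of the 8, at 15.4, 13.5 and 8.52 points. Regions near Sox9, the master factor of chondrocytes, and inside Col2a1, the main cartilage collagen gene, had differences of 12.5 and 11.4 points. The last 2 were inside Sox6 (8.81 points) and near Prg4 (7.72 points).

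Collagen genes as a list had 18 of 244 (7.38%) lower and 16 (6.56%) higher. The median difference was 1.14 points, and 147 regions (60.2%) were above 0. Col25a1 gave 5 of the 18 and Col15a1, of basement membranes, gave 3 of its 9 regions. The region with the largest difference lay 9177 bp from Col6a2 (chr10:76632387-76633191) and ranked 47.7, 38.4 and 28.4 in DOX and 57.6, 49.2 and 55.6 in PBS, a difference of 16 points. Col1a1 and its 2 regions stand in both the collagen and the osteoblast list. Integrins and cadherins had 19 of 208 (9.13%) lower and 13 (6.25%) higher. Itgb8, whose promoter is shown above, had 2 of its 3 regions lower, Cdh15 had 3 of 5, and Itgb5 had 3 of 14. The largest was inside Itgb5 (chr16:33922065-33923034), at 27.0, 17.9 and 21.9 in DOX and 53.1, 43.3 and 33.7 in PBS, a difference of 21.1 points.

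Wnt pathway genes had 20 of 270 (7.41%) lower and 11 (4.07%) higher, with a median difference of 0.167 points. Among secreted antagonists, Frzb had 2 regions that ranked lower and Sfrp1 and Dkk3 had 1 each, while Sfrp2 had none and 1 that ranked higher. The Frzb region near an end of the gene (chr2:80448174-80448642) ranked 18.4, 25.0 and 26.9 in DOX and 30.6, 44.2 and 36.5 in PBS, a difference of 13.7 points, and one 42543 bp from Sfrp1 had 12.2 points. The Dkk3 region had 5.77 points, or 3.79 without PBS replicate 2. Among the transcription factors of the pathway, Tcf7l2 had 3 regions at 11.6, 8.63 and 7.63 points, Tcf7 had 1 at 11.4 points and Tcf7l1 had 1 at 9.86 points. Among receptors, Lrp5 had 2 at 9.59 and 5.57 points, Ror2 had 2 at 9.67 and 7.13 points, and Ror1 and Lrp6 had 1 gene end each at 5.73 and 5.03 points. In the opposite direction, 3 of the 25 regions of Ror1 and 1 of the 14 of Ror2 ranked higher. Some of these differences were smaller when 1 library was left out and regions were ranked again. The 5.57 points at Lrp5 was 1.98 without DOX replicate 3. The 5.03 points at Lrp6 was 3.27 without DOX replicate 2 and 2.67 without PBS replicate 3. The 5.73 points at Ror1 was 3.72 without PBS replicate 3. The 2 smaller Tcf7l2 differences were 3.04 and 4.35 points without PBS replicate 1, but 14.3 and 15.4 without PBS replicate 3.

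Genes of MSPC identity and niche support were below the share over all genes, at 14 of 356 (3.93%) lower, with 22 (6.18%) higher and a median difference of -0.173 points. Csf1, the growth factor of macrophages and osteoclasts, had 3 of its 18 regions. The largest (chr3:107732462-107733744, 8314 bp away) ranked 32.7, 36.2 and 36.3 in DOX and 40.7, 56.8 and 58.1 in PBS, a difference of 16.8 points, and the others had 10.7 and 5.88 points, which were 5.35 without PBS replicate 3 and 3.43 without DOX replicate 3. Near Cxcl12, the chemokine that retains blood stem cells, 2 of 18 regions ranked lower and none higher. The one 90295 bp away (chr6:117271390-117272918) ranked 36.2, 35.4 and 26.3 in DOX and 50.5, 44.2 and 52.8 in PBS, a difference of 16.5 points, and the one 14526 bp away had 5.43 points. Both Cxcl12 regions were distal, and the second was among the weakest shared regions in every library, at ranks of 1.35 to 11.2. Ebf3, a transcription factor that keeps marrow spaces free of bone, had 2 of 36 regions at 13.0 and 5.59 points, the second 9.52 without PBS replicate 3. Ebf1 had 2 of 43 at 5.56 and 5.32 points, and the second was 2.19 without PBS replicate 1. Single regions were near Prrx1 (9.05 points), Mcam (7.73) and Angpt1 (6.68) and inside Igfbp5 (7.72) and Fstl1 (5.5). The Prrx1 value was 5.44 points without PBS replicate 3, and that of Angpt1 was 3.88 without PBS replicate 2. At Fstl1 the difference was 3.54 points without DOX replicate 3 and 3.46 without PBS replicate 1. None of the 12 regions near Lepr or the 26 near Kitl ranked lower.

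Adipocyte genes differed from osteoblast genes in the balance of directions. They had 11 of 181 (6.08%) lower and 24 (13.3%) higher, with a median difference of -1.34 points. Of the 11, 6 belonged to Zfp423, a factor that commits cells to the fat lineage, which had 36 regions and a median difference of 0.37 points. The largest Zfp423 region (chr8:87859920-87860356) ranked 3.05, 2.99 and 2.96 in DOX and 16.4, 22.9 and 19.5 in PBS, a difference of 16.6 points. Notch pathway genes had 12 of 193 (6.22%) lower and 21 (10.9%) higher, and TGF-beta ligands, receptors and Smads had 8 of 243 (3.29%) lower and 20 (8.23%) higher. BMP genes had 10 of 166 (6.02%) lower, insulin-like growth factor genes 11 of 183 (6.01%), nuclear receptors 14 of 234 (5.98%), and limb patterning and Hox genes 8 of 142 (5.63%), all near the share over all genes. Matrix proteases and their inhibitors had 14 of 172 (8.14%) lower.

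Genes of the p53 pathway, which DNA damage activates, had 8 of 86 (9.3%) lower and 9 (10.5%) higher, so their regions stood on both sides. The region 17342 bp from Cdkn1a, which encodes the cell cycle inhibitor p21 (chr17:29073119-29073888), ranked 12.8, 23.0 and 16.6 in DOX and 23.7, 24.5 and 39.3 in PBS. Its difference of 11.7 points was 7.28 without PBS replicate 3, and the nearest ranks of the groups, 23.0 and 23.7, almost met. Regions near Gadd45a and Gdf15 and inside Sesn1 had 11.6, 11 and 10.3 points, and without PBS replicate 3 the Gdf15 value was 4.78 and the Sesn1 value 15.8. Without PBS replicate 1 the Sesn1 value was 6.79. None of the 32 regions of DNA damage response and repair genes ranked lower or higher, and their mean ranks were 74.7 to 75.7 in DOX and 74.4 to 75.7 in PBS. Cell cycle genes had 2 of 84 (2.38%), AP-1 and immediate early factors 3 of 120 (2.5%), and antioxidant genes 3 of 84 (3.57%). Cytosolic ribosomal protein genes had 9 of 80 (11.2%) lower and 3 higher. Their difference was above 0 in 57 regions (71.2%), with a median of 1.22 points and mean ranks of 57.9, 58.6 and 58.3 in DOX, against 59.5, 59.8 and 60.7 in PBS. Within 10 kb of the gene the ribosomal count was 5 of 60. Genes of mitochondrial respiration had 4 of 73 (5.48%) lower.

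Lists of other marrow cells were read because a sort can carry some of them. The markers of MSPCs had a peak at a gene end for 9, 9 and 9 of 9 genes in DOX and 9, 9 and 8 in PBS. For B cells the counts were 2, 2 and 3 of 7 in DOX and 2, 2 and 2 in PBS, and no library had a peak at the ends of Cd79b, Ms4a1, Pax5 or Vpreb1. For myeloid cells they were 2, 4 and 2 of 8 in DOX and 2, 2 and 2 in PBS, with none at Ptprc, Itgam, Lyz2 or Mpo. For T and NK cells all counts were 0 of 5, for endothelial cells 2 of 6 in every library, with none at Pecam1, Cdh5 or Emcn, and for erythroid cells and megakaryocytes 3 of 7 in every library, with none at Gata1, Alas2, Hbb-bs or Itga2b. No count was lower in a DOX library than in the lowest PBS library.

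Regions near genes of these cells ranked lower in small numbers. B cell genes had 5 of 24 regions lower (20.8%) and 1 (4.17%) higher. The 5 were 2 each near or at Pax5 and Blnk and 1 inside Blk, which encode a B lineage factor, an adaptor and a kinase of the B cell receptor. The Blk region (chr14:63376782-63377796) ranked 43.5, 51.2 and 57.9 in DOX and 60.5, 68.6 and 65.7 in PBS, a difference of 14.1 points. The Pax5 pair lay inside the gene at 12.4 and 6.32 points, and the Blnk pair had 11.8 and 8.05 points. The mean rank of all 24 B cell regions was 48.7, 45.8 and 50.1 in DOX and 49.5, 50.3 and 51.7 in PBS, so the libraries overlapped. Myeloid genes had 4 of 27 (14.8%) lower, near Mrc1 (17.0 points), near Fcgr1 and at and inside Spi1, and 2 (7.41%) higher. The difference was above 0 in only 11 of the 27 myeloid regions, with a median of -2.06 points. Their mean rank was 39.8, 41.9 and 40.2 in DOX and 40.4, 41.4 and 40.1 in PBS, so the libraries overlapped. T and NK genes had 4 of 37 lower and 4 higher. Endothelial genes had 8 of 108 (7.41%) lower and 9 higher, and erythroid genes had 0 of 29 lower and 5 (17.2%) higher. The part of such cells in these ranks was not tested.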

How the data were processed

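ATAC-seq peak lists of 6 libraries were used, 3 of DOX and 3 of PBS, grouped by their titles. The submitters' processing notes name build mm10 and, among other tools and without their roles, MACS2 2.2.7.1, Bowtie2 2.4.5, Trim Galore 0.6.6 and Picard 2.10.9. Caller settings and any shift of reads for the Tn5 cut were not given in these sources. Each list was called in a single library. The authors deposited, for each peak, a fold enrichment over background (a ratio), a −log10 p, a −log10 q, a score and the position of the summit as another kind of value. The deposited score was 10 times the −log10 q in 100% of peaks. None of these values is scaled between libraries, so they served only to rank regions within a library. A constant background in each library makes fold rise with the number of fragments alone, so the background does not change a rank. It was solved from the even step between fold values, which whole numbers of fragments leave, and 100% of pileups with a fold under 300 were then whole to within 0.05. The step was fitted to folds of these same peaks, so that share describes the fit. Libraries held 65462 to 100642 peaks.

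Intervals that overlapped by at least 1 bp were merged, and ranks were averaged over ties (Python 3.11.15, pandas 2.3.3, scipy 1.17.1). Each region was assigned by its strongest summit to the closest protein-coding gene, up to 100 kb away, in a RefSeq table of GRCm38.p6 with 21631 such genes. That table gives no exons or UTRs, so these were not told apart. Start sites and promoters came from a second RefSeq table, with none on chromosome 18. Of 806 symbols in the 31 gene lists, 803 matched.

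Members and lists were chosen with earlier results of these data known. The regions named are the 20 with the largest difference, the 10 with the highest PBS rank, the 10 with the largest difference at gene ends, the largest of each list, all of the MSPC list, the 10 genes with most regions (ties taken in order of position) and those beside the 5 point minimum. The other members of the osteoblast, adipocyte, cartilage, Wnt, p53, B cell, myeloid and T cell lists, the chromosome 5 window, the microRNA and the Runx2 and Alpl promoters were chosen after their values were seen. No test was made, because the compared ranks chose the regions.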

Additional observations from a re-analysis of the deposited data

How the results depend on the processing

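No paired analysis was possible because the result comes from no test and the labels tie the replicate numbers to no shared batch. Ranking by −log10 p chose the same 3284 regions. A constant background makes p follow fold within a library, so this outcome was fixed in advance. With a minimum of 10 points, 1665 regions were lower and 1841 higher, 4.44% of the lower ones were at gene ends, and 3.86% of osteoblast regions were lower, against 3.01% of all shared regions. Without a minimum 5139 were lower and 24.4% of them at gene ends, above the 21.1% of all shared regions. The gene end share was 14.2% with centred log2 folds and 14.1% with a window of 2.5 kb, and summed folds, equal-length lists, windows around summits, single-peak regions and a fold minimum of 5 left the counts and shares within 1.5 times. Leaving out 1 library gave 4462 to 6173 lower and 4751 to 6262 higher regions, since fewer ranks must then not overlap; gene end shares were 5.41% to 8.97% and osteoblast shares 9.91% to 17.1%, beside 8.03% to 10.7% of all shared regions. Of 216 named regions, including those beside the minimum, none changed sign in the settings that still held the region. A region no longer shared under a setting was left out there. All were named with every DOX rank below every PBS rank, so leaving out 1 library could hardly change a sign. In size, 45 moved over 1.5 times without PBS replicate 3, the shallowest library, where a median chosen region had 19 fragments. That setting ranked 68448 shared regions instead of 55226, so the libraries and the rank scale changed together. The part of depth was not tested. The osteoblast share was added to these settings after the data were seen.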
